A study of Macaca mulatta with 4 samples.

Results

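The genes described here belong to the integrated stress response: DDIT3, ATF3, ATF4, PPP1R15A, TRIB3, CHAC1, DDIT4, XBP1, HSPA5 and CEBPB. They were taken by symbol from the Ensembl macaque gene identifiers of the count table, and 8 of the 10 had an identifier among its 21314 genes. ATF4 and DDIT4 had none and were not analysed here. All 8 were among the 13227 genes that passed the filter on low counts and were tested. RNA came from rhesus macaque (Macaca mulatta) morulae, embryos that are compacting balls of cells before a blastocyst forms. The GG embryos were gynogenetic, with nuclear chromosomes from the mother alone, and the AG embryos were androgenetic, with nuclear chromosomes from the father alone. Each group had 2 libraries, and no library of embryos with both parental genomes was analysed here, so a difference shows only how GG and AG stand to each other. The labels give no strain, day of development or animal, and the number of embryos in a library is unclear from them. Whether the replicates are from different animals is not stated, so the tests rest on a spread that may be partly technical.

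In the integrated stress response, kinases that sense different kinds of stress phosphorylate the translation factor eIF2. General protein synthesis then slows, while translation of the transcription factor ATF4 rises, and ATF4 turns on genes of amino acid supply, redox balance and, with its target DDIT3 (CHOP), cell death. PPP1R15A brings a phosphatase back to eIF2 and so closes the loop. PERK (EIF2AK3), the kinase of the endoplasmic reticulum (ER), shares its trigger with the other arms of the unfolded protein response, of which XBP1 and the chaperone HSPA5 are parts. In mouse preimplantation embryos this response is known to be engaged by unfavourable culture. RNA counts per gene do not measure eIF2 phosphorylation, ATF4 protein or the splicing of XBP1.

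Libraries held 21335918 and 29733977 estimated counts in GG replicates 1 and 2, and 14129608 and 19108735 in AG replicates 1 and 2. Levels are in CPM, each library's counts divided by its TMM-adjusted total over tested genes, a scale that does not correct for gene length, so levels are compared between libraries and not between genes. Log2 fold changes are those of GG over AG, each with the standard error (SE) implied by the edgeR quasi-likelihood F test, and a gene was called at a Benjamini-Hochberg adjusted p under 0.05 over all tested genes. Of 12 markers of the morula and of pluripotency, 6 matched, and their summed level was 1149 and 1515 CPM in the GG libraries and 633 and 622 CPM in the AG libraries. The 6 did not move together: DPPA4 and KLF17 were called lower in GG (log2 fold change -1.98 and -4.23), DPPA2 was called higher (3.34), POU5F1, NANOG and TFAP2C were not called, and the median log2 fold change was -0.17. Cumulus cell markers (8 of 12 matched) summed to 2.18 and 11.2 CPM in GG and 7.19 and 0.559 CPM in AG, with FSHR at 0 in every library. Sperm markers (7 of 8 matched) summed to at most 2.84 CPM in a library, with PRM2, TNP2 and ODF1 at 0.

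DDIT3, ATF3 and PPP1R15A fell in GG embryos relative to AG embryos, 0 of the 8 genes rose, and TRIB3, CHAC1, XBP1, CEBPB and HSPA5 did not pass the test. The count of 0 that rose with edgeR was also 0 at an unadjusted p under 0.05 and 0 with DESeq2. Of all tested genes, 12.9% were called, 6.34% as higher and 6.58% as lower in GG. Of the 8 genes, 7 had a negative log2 fold change and their median was -3.20, where the median of all tested genes was 0.04. In 6 of the 8, both GG libraries lay below both AG libraries, an arrangement that held for 30.7% of all tested genes, and 64.1% did not overlap in either direction.

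**Figure D1:**
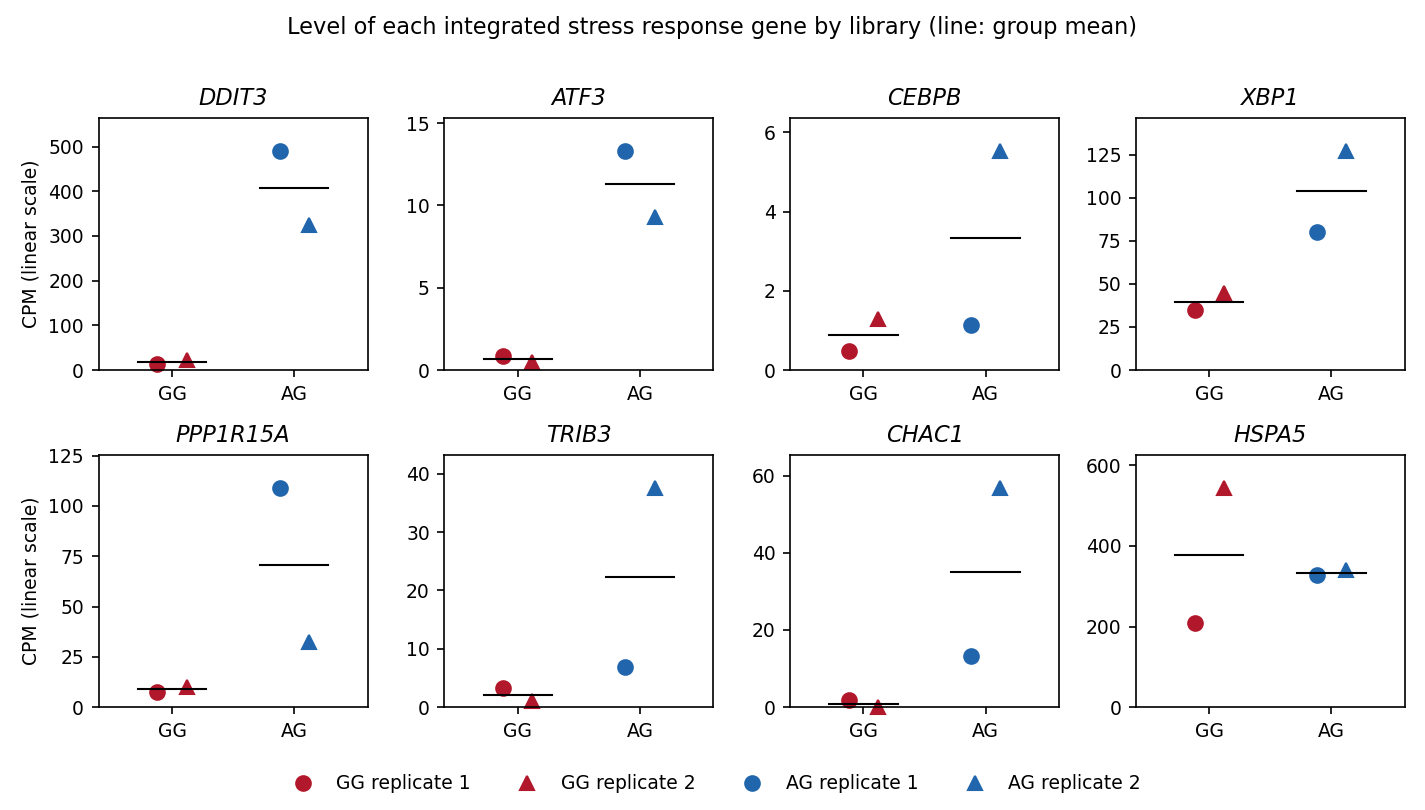
Level in CPM (linear axis from 0) of each gene in the 2 GG and 2 AG libraries; circles are replicate 1, triangles replicate 2, and lines the group means. The GG points lie below the AG points in all panels but CEBPB and HSPA5, and the AG points lie far apart for PPP1R15A, TRIB3, CHAC1 and CEBPB.

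Among the transcription factors, DDIT3 (ENSMMUG00000011286), which encodes the factor CHOP that partners with C/EBP proteins and is known for promoting cell death under lasting stress, had 13.2 and 21.3 CPM in GG replicates 1 and 2 and 491 and 325 CPM in AG replicates 1 and 2. Both GG libraries were low and both AG libraries high, and the lower AG library stood 15.2-fold above the higher GG library. DDIT3 averaged 17.3 ± 5.79 CPM in GG and 408 ± 117 CPM in AG (SD, n = 2 each), and the fit put it 23.6-fold lower in GG (edgeR log2 fold change -4.56 ± 0.41 SE with adjusted p = 0.00792). Only 2.17% of tested genes had a log2 fold change as low or lower. Leaving out any library kept the call, with log2 fold changes between -4.99 and -4.23 and adjusted p of at most 0.0488.

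ATF3 (ENSMMUG00000012185), a stress-induced factor of the ATF/CREB family, had 18 and 14 counts in the GG libraries and 187 and 183 counts in the AG libraries. Those counts are 0.855 and 0.477 CPM in GG against 13.3 and 9.29 CPM in AG, so that GG was uniformly low. The log2 fold change was -4.09 ± 0.62 SE (edgeR adjusted p = 0.0214). With GG replicate 1 or GG replicate 2 left out, the call ended (adjusted p = 0.107 and 0.150), while the log2 fold change stayed between -4.55 and -3.75.

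CEBPB (ENSMMUG00000045219), a C/EBP factor that is itself a partner of DDIT3, had low counts in every library, with 10 and 38 counts in GG and 16 and 109 counts in AG, or 0.475 and 1.30 CPM in GG and 1.14 and 5.54 CPM in AG. The groups overlapped, since GG replicate 2 lay above AG replicate 1, with means of 0.885 ± 0.580 CPM in GG and 3.34 ± 3.11 CPM in AG (SD, n = 2 each), and edgeR did not call it (log2 fold change -1.90, adjusted p = 0.251). Without AG replicate 2 the log2 fold change was -0.36 and without AG replicate 1 it was -2.62.

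XBP1 (ENSMMUG00000007215), the factor that the ER sensor IRE1 activates by splicing its RNA, had 34.9 and 44.5 CPM in GG and 80.1 and 127 CPM in AG. Its groups did not overlap, and GG was 2.61-fold lower, but the adjusted p of 0.0560 missed the threshold (log2 fold change -1.39 ± 0.35 SE). It passed in 7 of 11 alternatives, among them DESeq2 (adjusted p = 0.00538). The fits without AG replicate 1 or without AG replicate 2 were also among them (log2 fold changes -1.68 and -1.04). It did not pass without GG replicate 1 or without GG replicate 2 (log2 fold changes -1.22 and -1.60).

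Of the genes that feed back on the pathway or carry out its effects, PPP1R15A (ENSMMUG00000009223), known as GADD34 and the stress-induced subunit that directs a phosphatase to eIF2, had 7.55 and 9.92 CPM in GG and 109 and 32.4 CPM in AG. Both GG libraries lay below both AG libraries, and AG replicate 1 stood 3.37-fold above AG replicate 2. Its fitted level was 8.08-fold lower in GG (a log2 fold change of -3.01 ± 0.64 SE at an adjusted p of 0.0399). Without AG replicate 1 the log2 fold change was -1.89 and the call held (adjusted p = 0.0243), whereas it ended without GG replicate 1 or 2 (0.197 and 0.188).

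TRIB3 (ENSMMUG00000012600), a pseudokinase that binds AKT and restrains ATF4, had 3.23 and 1.02 CPM in GG and 6.84 and 37.6 CPM in AG. The GG libraries were the lowest, but AG replicate 1 was closer to them than to AG replicate 2, and the gene was not called (log2 fold change -3.40 ± 1.01 SE, adjusted p = 0.0799). With all 4 libraries it passed in DESeq2 (adjusted p = 0.000817) and in edgeR without a filter on low counts (0.0148). It also passed without AG replicate 1 (log2 fold change -4.16). With AG replicate 1 as the only AG library the log2 fold change was -1.73, and TRIB3 did not pass. Nor did it pass without GG replicate 1 or without GG replicate 2 (log2 fold changes -4.43 and -2.79).

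CHAC1 (ENSMMUG00000014542), an enzyme that breaks down glutathione, had 37 and 0 counts in GG and 184 and 1119 counts in AG. The count of 0 in GG replicate 2 allows up to 0.102 CPM (3 counts, counting error only), beside 1.76 CPM in GG replicate 1 and 13.1 and 56.8 CPM in AG. CHAC1 had the most negative log2 fold change of the 8 genes and also the largest error (-5.36 ± 1.68 SE, adjusted p = 0.0901), and it was not called. Both its fold change and whether it passed varied with the library left out. Without AG replicate 1 it passed (log2 fold change -6.10, adjusted p = 0.0374), without AG replicate 2 the log2 fold change was -3.99 (adjusted p = 0.105), and without GG replicate 2 it was -4.33 (0.168), in both cases less negative than that of DDIT3. Without GG replicate 1 the only GG count left is the 0, and no fold change is given (adjusted p = 0.0694). It also passed without a filter on low counts (0.0125) and was not called by DESeq2 (0.177).

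HSPA5 (ENSMMUG00000005217), the ER chaperone BiP, had 209 and 545 CPM in GG and 328 and 339.6 CPM in AG, so that the 2 AG libraries lay between the 2 GG libraries. The means were 377 ± 237 CPM in GG and 334 ± 8.19 CPM in AG (SD, n = 2 each), and the log2 fold change of 0.17 ± 0.45 SE was not called (adjusted p = 0.827). Without GG replicate 2 its sign turned (log2 fold change -0.71, adjusted p = 0.462). The deposited values of DDIT3, PPP1R15A and HSPA5 were not whole numbers, as happens in estimates that divide reads among features.

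**Figure D2:**
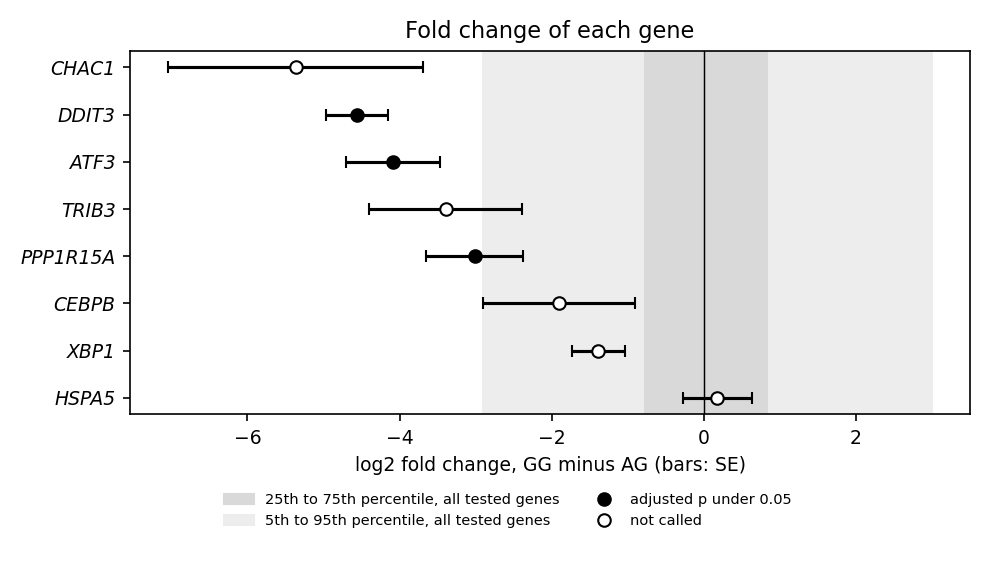
Log2 fold change (GG minus AG) of the 8 genes with SE bars; filled points are called by edgeR at an adjusted p under 0.05, and grey bands hold the middle of all tested genes. DDIT3, ATF3 and PPP1R15A are the filled points, all below -2.91, the 5th percentile of tested genes, and CHAC1 and TRIB3 lie there too as open points with longer bars.

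The call counts for the 8 genes moved with the libraries used. Without AG replicate 1, 6 were lower in GG, where 8.54% of tested genes were, and without AG replicate 2 it was 4, where 14.0% were. Without GG replicate 1 or GG replicate 2, DDIT3 alone was called, beside 0.393% and 0.212% of tested genes lower in GG; in those fits the single GG library was assumed to vary like the AG pair. DESeq2 called 5 lower in GG, with 11.9% of its tested genes lower in GG, and edgeR without a filter on low counts called 6, with 7.45%. Thinning every library to the same total left 4 lower in GG (7.80% of tested genes), as did the replicate number as a block (6.22%). A minimum mean of 10 CPM left 6 of the 8 tested and 3 lower in GG (10.7% of tested genes). Scaling by DESeq2 size factors or by upper quartiles left the count at 3 (6.52% and 6.40% of tested genes). In all of these fits 0 of the 8 were called higher in GG.

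**Figure D3:**
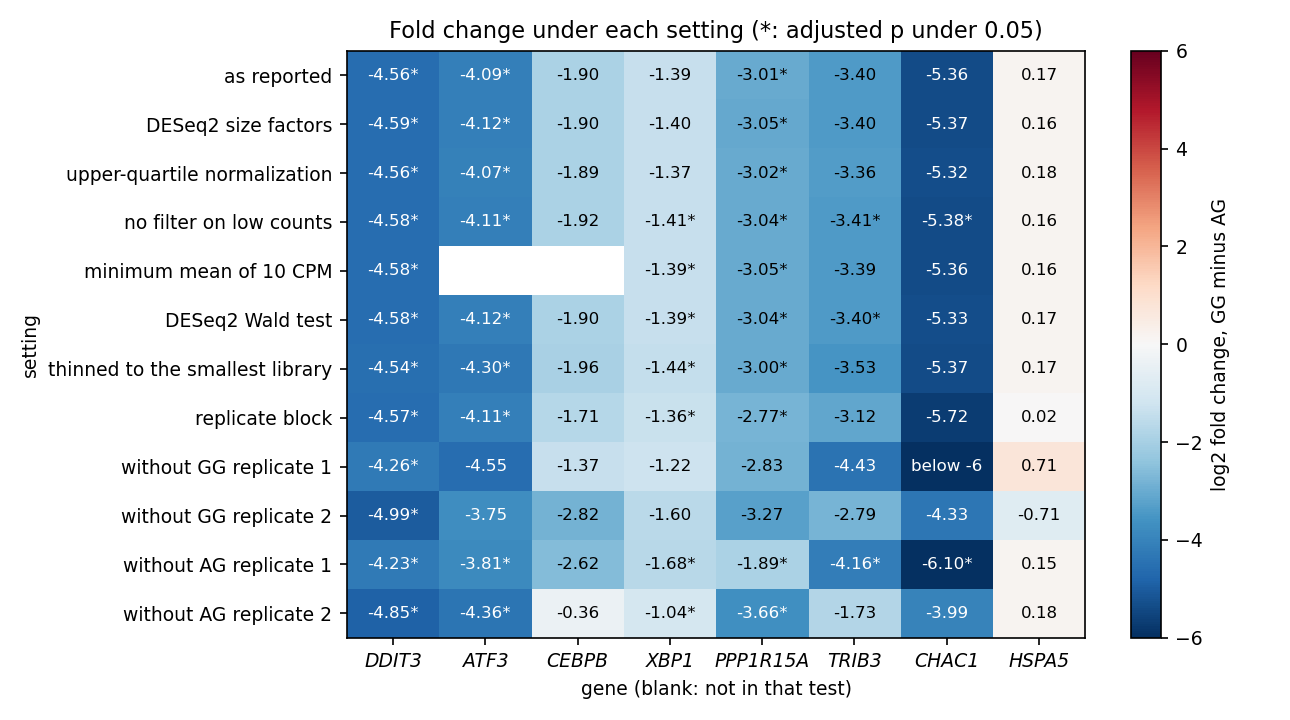
Log2 fold change (GG minus AG) of each gene, by colour and number, in the reported fit and in each alternative; an asterisk marks an adjusted p under 0.05. DDIT3 carries an asterisk in every setting, ATF3 and PPP1R15A lose theirs when a GG library is left out, and HSPA5 carries none.

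The 2 AG libraries were not alike in these genes. TRIB3, CHAC1 and CEBPB were 5.50-fold, 4.34-fold and 4.86-fold higher in AG replicate 2 than in AG replicate 1, whereas DDIT3, ATF3 and PPP1R15A were higher in AG replicate 1, by 1.51-fold, 1.43-fold and 3.37-fold. On the log2(CPM + 1) scale the difference between the AG libraries was larger for TRIB3 than for 98.1% of tested genes, for CHAC1 than for 97.2%, for PPP1R15A than for 94.7% and for CEBPB than for 93.3%. It was larger for DDIT3 than for 59.6% and for ATF3 than for 50.5%. For HSPA5 the difference between the AG libraries was larger than that of only 6.43% of tested genes. Between the GG libraries, HSPA5 differed more than 97.6% of tested genes, CHAC1 more than 98.0% and TRIB3 more than 94.3%. That GG share was 82.0% for DDIT3, 80.9% for CEBPB, 57.8% for PPP1R15A, 56.3% for XBP1 and 54.7% for ATF3. TRIB3 and CHAC1 were higher in GG replicate 1 than in GG replicate 2, the opposite order to AG.

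A list of 46 other known targets of ATF4 and CHOP had 35 matched and 28 tested genes; 5 fell in GG, 1 rose and 22 were not called (21.4% called), with a median log2 fold change of -1.17. DESeq2 called 15 of 34 tested, beside 3341 of 14366 among all its tested genes. Without a filter, edgeR called 13 of 35 tested, beside 2609 of 18261. Leaving out either GG library ended all calls of the list, and leaving out either AG library raised their number. The calls among all tested genes likewise fell without a GG library and rose without an AG library. MTHFD2, a mitochondrial enzyme of folate metabolism, had 48.5 and 40.9 CPM in GG and 210.1 and 241 CPM in AG (log2 fold change -2.33 ± 0.27 SE, adjusted p = 0.0130). SESN2, a sestrin that senses leucine and restrains mTORC1, had 9.02 and 12.9 CPM in GG and 73.7 and 115 CPM in AG (log2 fold change -3.11 ± 0.40 SE). MARS1, the methionyl-tRNA synthetase, was likewise lower (log2 fold change -2.09 ± 0.37 SE). The gene that rose was NDRG1, also known as a target of hypoxia, with 40.8 and 17.9 CPM in GG and 1.14 and 1.22 CPM in AG (log2 fold change 4.63 ± 0.59 SE). These 4 calls ended without GG replicate 1 or GG replicate 2. SARS1, a seryl-tRNA synthetase, and CTH, an enzyme of cysteine synthesis, were the remaining called genes of the list, both lower in GG (log2 fold change -1.78 and -4.72); they were picked once their values were known.

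Between the AG libraries, 14 of these 28 targets were more than 2-fold higher in AG replicate 2 on the log2(CPM + 1) scale and 1 was more than 2-fold higher in AG replicate 1. Over all tested genes, 11.3% were that much higher in AG replicate 2 and 8.63% in AG replicate 1. Between the GG libraries, 1 of the 28 was more than 2-fold higher in GG replicate 2 and 2 in GG replicate 1. The genes that follow were picked for this difference once the values were known. PSAT1, an enzyme of serine synthesis, had 14.1 and 10.9 CPM in GG and 22.2 and 608 CPM in AG replicates 1 and 2. ASNS, the asparagine synthetase, had 13.6 and 22.7 CPM in GG and 25.2 and 228 CPM in AG, and STC2, a secreted glycoprotein, 0.665 and 0.511 CPM in GG and 2.56 and 24.3 CPM in AG. None of these 3 was called (adjusted p = 0.0578, 0.0877 and 0.118 for STC2, PSAT1 and ASNS), and in each the AG replicate 1 library stood nearer to GG than to AG replicate 2. The median difference between AG replicates 2 and 1 was 1.20 log2 units for the 28 targets and 0.05 for all tested genes.

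**Figure D4:**
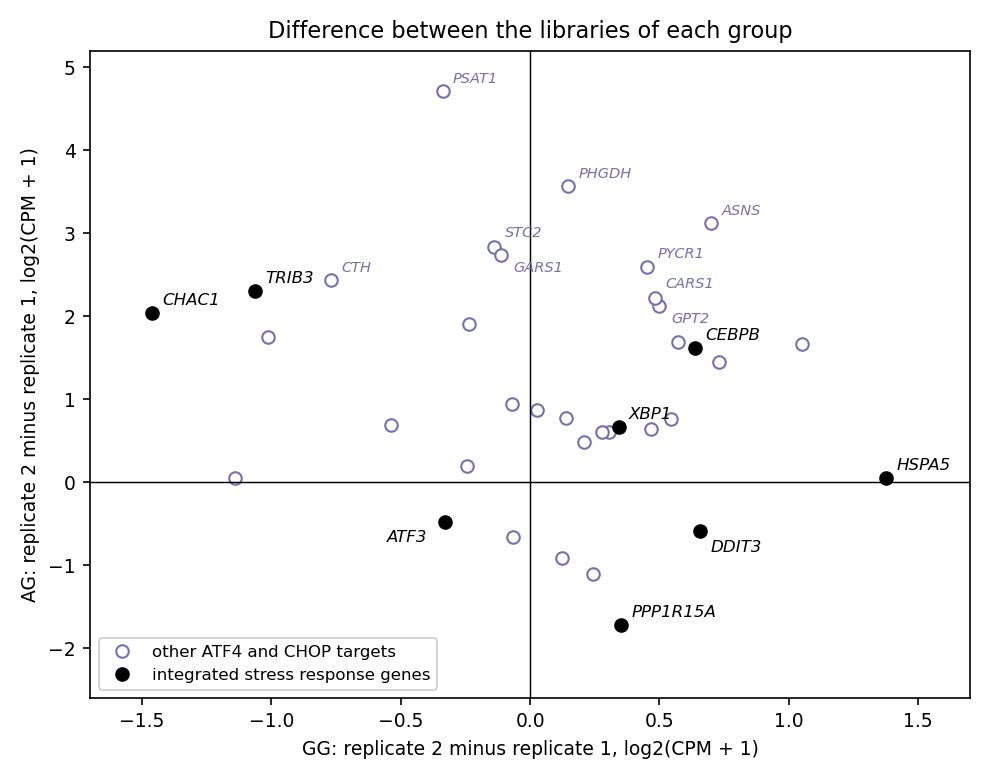
Difference between the libraries of a group, replicate 2 minus replicate 1 in log2(CPM + 1), for GG on the horizontal and AG on the vertical axis; filled points are the 8 genes and open points the 28 other ATF4 and CHOP targets. TRIB3, CHAC1 and CEBPB lie high with PSAT1, PHGDH and ASNS, above an AG difference of 1, while DDIT3, ATF3 and PPP1R15A lie below 0.

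Upstream of these genes stand the kinases, eIF2 itself, its exchange factor eIF2B and its phosphatase. All 21 matched genes of 22 were tested, and 2 rose in GG, 1 fell and 18 were not called (14.3% called), with a median log2 fold change of 0.34. EIF2AK3, the ER-bound eIF2 kinase PERK, was the gene that fell, with 3.85 and 4.23 CPM in GG and 25.6 and 34.2 CPM in AG (log2 fold change -2.89 ± 0.40 SE, adjusted p = 0.0180). PPP1CB, a catalytic subunit of the phosphatase that PPP1R15A recruits, rose in GG, at 44.8 and 36.9 CPM against 14.4 and 12.6 CPM in AG. OMA1, a mitochondrial protease upstream of the kinase EIF2AK1 in human cells, rose to 46.3 and 56.8 CPM in GG, against 9.76 and 17.6 CPM in AG. The other eIF2 kinases, singled out after the test, did not pass it and had log2 fold changes of 0.53 for EIF2AK1, 2.17 for EIF2AK2 and 2.09 for EIF2AK4. The 3 calls ended without GG replicate 1 or GG replicate 2.

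Sensors of the unfolded protein response, ER chaperones and genes of ER-associated degradation were mostly not called, like most of all tested genes. Of 43, 37 matched and were tested. In GG, 1 rose, 0 fell and 36 were not called, with a median log2 fold change of 0.16. The share called by edgeR was 2.70%, beside 12.9% of all tested genes. DESeq2 called 8 of 37, beside 3341 of 14366 among all its tested genes, and edgeR without a filter on low counts 5 of 37, beside 2609 of 18261. A minimum mean of 10 CPM gave 3 of 27 tested, beside 1453 of 7097. The replicate number as a block gave 2 of 37, beside 1697 of 13227. More were called without either AG library, as among all tested genes, and the call ended without GG replicate 2. HSP90B1, the ER chaperone GRP94, had 303 and 654 CPM in GG and 38.2 and 15.3 CPM in AG (log2 fold change 4.16 ± 0.62 SE, adjusted p = 0.0209), a call that ended without GG replicate 2 (adjusted p = 0.106). HERPUD1, a membrane protein of ER-associated degradation chosen after its values were seen, stood at 1.42 and 4.94 CPM in GG and 9.26 and 77.2 CPM in AG, and was not called (adjusted p = 0.0853). ATF6, the sensor of the third arm, chosen likewise, had 93.1 and 99.5 CPM in GG and 30.8 and 48.8 CPM in AG (adjusted p = 0.0609).

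Of 42 other bZIP factors, the class of dimerising transcription factors to which DDIT3, ATF3, CEBPB and XBP1 belong, 38 matched and 29 were tested. In GG, 3 fell, 0 rose and 26 were not called (10.3% called), with a median log2 fold change of -0.35. DBP, a factor of circadian output, had 10.6 and 9.65 CPM in GG and 51.6 and 45.8 CPM in AG (log2 fold change -2.26 ± 0.33 SE, adjusted p = 0.0197). NFE2L3, a relative of NRF2, had 2.52 and 1.33 CPM in GG and 8.19 and 16.4 CPM in AG (adjusted p = 0.0489). CREB3L3, an ER-anchored factor known from liver, had 0 and 3 counts in GG and 40 and 39 counts in AG (adjusted p = 0.0457). NFE2L3 and CREB3L3 lost their calls with the replicate number as a block (adjusted p = 0.0667 and 0.0602), and all 3 calls ended without GG replicate 1 or GG replicate 2. The call of NFE2L3 also ended without AG replicate 2 (0.0549) and that of CREB3L3 without AG replicate 1 (0.0569).

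Heat shock and immediate early genes moved both ways. Of 35, 20 matched and 18 were tested, of which 3 rose in GG, 2 fell and 13 were not called (27.8% called; median log2 fold change -0.07). HSP90AB1, a cytosolic chaperone, had 114 and 91.8 CPM in GG and 2.64 and 4.01 CPM in AG (log2 fold change 4.94 ± 0.40 SE, adjusted p = 0.00629). HSPE1 and HSPD1, which together form the mitochondrial chaperonin, rose in GG (log2 fold changes 2.98 ± 0.39 and 2.24 ± 0.33 SE). All 3 are known from the human genome to have near copies, among which estimated counts could be divided; the deposited counts of HSP90AB1 were whole in all 4 libraries, and how far reads were shared was not tested. HSF2, a heat shock factor, had 9.59 and 16.5 CPM in GG and 64.0 and 62.4 CPM in AG (log2 fold change -2.27 ± 0.39 SE), and MYC, picked once its values were known, was the other gene that fell. The calls of HSPE1, HSPD1 and HSF2 ended without GG replicate 1 or GG replicate 2.

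Regulators of AKT and of the growth kinase complex mTORC1, with the relatives of TRIB3, had 21 of 27 matched and 20 tested. Of these 20, 0 were called by edgeR and 4 had an unadjusted edgeR p under 0.05. DESeq2 called 2 of 20, beside 3341 of 14366 among all its tested genes. The median log2 fold change of the list was -0.14. TRIB1, a relative of TRIB3 chosen after its values were seen, had 12.02 and 8.90 CPM in GG and 24.8 and 19.2 CPM in AG (adjusted p = 0.125). Across all 6 pathway lists, 7 of 153 tested genes rose in GG and 11 fell, or 11.8% called beside 12.9% of all tested genes. The 18 calls of these lists became fewer without either GG library and more without either AG library, and so did the calls among all tested genes.

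**Figure D5:**
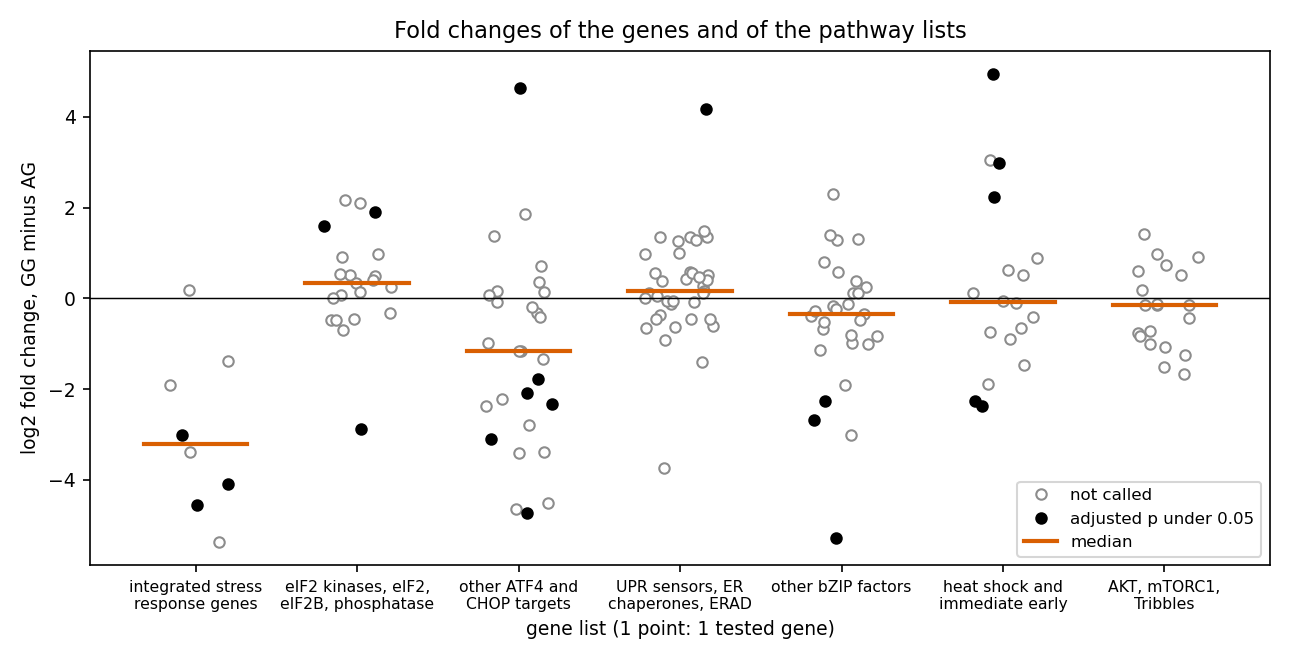
Log2 fold change (GG minus AG) of every tested gene in the integrated stress response set and in the 6 pathway lists; filled points are called by edgeR, and orange lines are medians. The medians stand at -3.20 for the integrated stress response genes and -1.17 for the other ATF4 and CHOP targets, and the other medians lie between -0.35 and 0.34.

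The genes most like DDIT3 over the 4 libraries, by Euclidean distance of centred log2(CPM + 1) among 5947 genes with a symbol and a mean of at least 10 CPM, were DDX4, CTNNAL1 and SERINC5. DDX4, a helicase of germ cells, had 11.4 and 19.5 CPM in GG and 359.6 and 257 CPM in AG, at a distance of 0.248 log2 units. CTNNAL1, related to alpha-catenin, had 1.09 and 2.86 CPM in GG and 56.8 and 52.9 CPM in AG at a distance of 0.429, and SERINC5, a membrane protein, 4.51 and 10.1 CPM in GG and 175 and 168 CPM in AG at 0.453. With 4 libraries in 2 groups, likeness mostly restates the difference between GG and AG.

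The summed level of blood cell markers was lower in GG, like DDIT3, but the markers did not move together. Of 8, 7 matched, and their summed level was 14.8 and 17.8 CPM in GG and 156 and 69.2 CPM in AG. PTPRC, the leukocyte antigen CD45, made up most of the AG sum, with 6.46 and 3.44 CPM in GG and 141 and 65.9 CPM in AG. CD3E of T cells had 1 count in AG replicate 2 and 0 in the other libraries. HBA1, a globin gene, was at most 3.49 CPM in a library. Of the 5 tested markers, 4 had a negative log2 fold change and 1 a positive one. LYZ went the other way, with 5.37 and 9.82 CPM in GG and 0.427 and 1.27 CPM in AG. It was not called (log2 fold change 3.13, edgeR adjusted p = 0.0533). For HBA1 and CD14 the groups overlapped. The part of these markers in the results above was not tested. In such bulk samples, fewer cells that express a gene and less of its RNA per cell cannot be told apart.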

How the data were processed

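RNA of 2 GG and 2 AG macaque morula libraries was amplified as cDNA with a SMARTer kit for low input, per the labels' protocols. The deposited table holds estimated counts per Ensembl gene, not scaled by the authors to library size, and from 30.0% to 32.2% of values in a library are not whole. Trim Galore, STAR 2.6.0c, Salmon 0.12.0 and the build rheMac8 are named, without role or order, per the submitters' processing notes; annotation release and strand setting: not given in the sources used here. Reads of overlapping or antisense genes may thus not be told apart, and no molecular identifiers are named, so floors cover counting error only.

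Identifiers were matched to symbols for 14654 of 21314 genes (68.8%), and none of the 8 genes had several. Rounded counts went into edgeR 4.0.16 under R 4.3.3 and its quasi-likelihood F test (filterByExpr, minimum count 10 and total 15; TMM; group alone; Benjamini-Hochberg over 13227 genes), fits that were checked on simulated counts. Levels are CPM on TMM-adjusted totals. Fold changes are GG minus AG. The genes, the 6 pathway lists and the 4 marker lists were chosen with earlier results of these data known. Named from each list were up to 4 called genes with the smallest p; others are marked where they occur. The 11 alternatives included DESeq2 1.42.0. Sequences of genes and promoters were not used here.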

Additional observations from a re-analysis of the deposited data

How the results depend on the processing

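For the 23 named genes that were tested, 249 values under 11 alternatives were compared with the reported ones: 201 kept their direction and their side of the threshold, 35 lost a call, 12 gained one and 1 turned its sign (HSPA5 without GG replicate 2; its log2 fold change ran from -0.71 to 0.71 over the left-out libraries, the 0.71 coming without GG replicate 1). Without a filter on low counts, 2609 genes were called, 1360 of them lower in GG, with 6 of the 8 integrated stress response genes, all 6 lower in GG, and 35 pathway list genes. DESeq2 called 3341 genes, 1630 higher and 1711 lower in GG, with 5 of the 8, all 5 lower, and 42 pathway list genes. With 1 library left out in turn, called genes numbered 69 to 3942, those higher in GG 41 to 2096 and those lower in GG 28 to 1846. The called among the 8, and those lower in GG, numbered 1 to 6, and called pathway list genes 1 to 46, the lowest counts coming without a GG library; the cause was not tested. TMM was replaced by DESeq2 size factors or upper quartiles, the libraries were thinned to 14129529 counts, or a mean of 10 CPM was required, and the same 3 genes, DDIT3, ATF3 and PPP1R15A, were called where tested, with XBP1 added by the last 2. Libraries of the same number share only that number in the labels, and the differences between replicates correlated at 0.108 across genes between GG and AG; with the number as a block, 1697 genes were called instead of 1709, and XBP1 was called. Summing several identifiers per gene could not be run, since none of the 8 had more than 1. GG libraries were deeper than AG libraries, and 1 count was worth 0.0341 to 0.0712 CPM, which limits CEBPB, ATF3 and CHAC1 most.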

Other observations

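Of the 35 matched ATF4 and CHOP targets, 28 passed the filter on low counts. Among those that failed it, 4 amino acid and stress genes had their reads almost entirely in AG replicate 2. They were picked for this pattern once their values were known. How common the pattern is among all genes that failed the filter was not tested. ALDH1L2, a mitochondrial enzyme of folate metabolism, had 0 and 1 counts in GG replicates 1 and 2 and 5 and 341 counts in AG replicates 1 and 2. FGF21, a hormone that ATF4 induces, had 0 and 0 counts in GG and 0 and 126 counts in AG. SLC7A1, a transporter of cationic amino acids, had 0 and 0 counts in GG and 0 and 46 counts in AG, and SLC1A4, a transporter of neutral amino acids, had 170 counts in AG replicate 2 and at most 5 in any other library. With 1 library holding the reads, these values describe that library and not AG embryos as a group.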
